A study of Mus musculus with 8 samples.

Results

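The 8 kidney RNA-seq libraries of the series fell into 2 sides of 4 that cut across the genotype labels. The sides were chosen from the measured values, by the place of each library along the first principal component of log2 CPM (CPM being counts of a gene scaled to the size of the library). Side A holds knockout libraries 1, 2 and 4 and wildtype library 1, and side B holds knockout library 3 and wildtype libraries 2, 3 and 4, so all 8 of 8 libraries belong to one side or the other. Of 37583 genes in the files, 10935 had a mean of 5 CPM or more, and 1526 of those had every library of one side above every library of the other. Because the same values drew the sides and are then described, levels and ratios between the sides are given without p-values, and no count of genes supports the existence of the sides.

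Each library came from RNA of whole mouse kidney. The libraries labelled knockout came from mice with Six2Cre and with floxed alleles of both TFAP2A copies and of 1 of the 2 TFAP2B copies, the other TFAP2B copy being wildtype. The libraries labelled WT came from control littermates, and the labels do not say which of these alleles the controls carried. Six2 marks progenitors of the nephron, so a Cre recombinase driven by it acts in the tubule and podocyte lineage and not in vessels, stroma or the ureteric bud lineage that forms the collecting ducts. Age, sex, litter, hour of collection, animal and sequencing run are not in the labels, and nothing states that the libraries came from separate animals.

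As background, the proximal tubule takes back most of the filtered solutes and imports organic acids and drugs from blood. Its straight part lies deepest in the cortex and outer medulla, and in mice many of its transporters and enzymes respond to androgen. The thick ascending limb, the thin limbs and the collecting duct run through the medulla, where salt reabsorption and water channels set the concentration of urine. Fasting, stress hormones, interferon and handling of tissue each change known sets of kidney transcripts within hours.

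Gene counts totalled 13871861 to 16629301 per library, and the ranges of the sides overlapped. A count of 0 allows up to 0.188 to 0.223 CPM in a library, from a floor of 3 counts that covers counting error only. Defining kidney markers were high in every library. Umod, the main protein of the thick ascending limb, lay between 3562 and 5006 CPM, and Slc34a1, the phosphate transporter of the proximal tubule, between 3258 and 5521 CPM. Tfap2a was at 5.65, 3.64, 5.12 and 5.81 CPM in knockout libraries 1 to 4 and at 4.08, 4.7, 5.31 and 2.78 CPM in wildtype libraries 1 to 4. Tfap2b was at 69.2, 103, 58 and 89.4 CPM in the knockout libraries and at 100.4, 51.8, 74.6 and 86.3 CPM in the wildtype libraries. The levels of both targeted genes overlapped between the genotype labels and between the sides, and do not bear out the labels, although a count over a whole gene may miss the loss of an exon. By genotype as labelled, 0 genes of 14433 (0%) passed an adjusted p of 0.05 in edgeR's quasi-likelihood test, with 578 genes at an unadjusted p under 0.05, and DESeq2 called 4.

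Some libraries stood apart in RNA that does not come from nephrons. In what follows, 8 values of a gene are given in CPM, first for side A in the order knockout 1, knockout 2, knockout 4 and wildtype 1, then for side B in the order knockout 3 and wildtype 2, 3 and 4. Marker genes of the adrenal gland, which sits on the kidney, for steroid and catecholamine synthesis and related functions, summed to 28.2, 1131, 27.1 and 1098 CPM in side A and to 24.8, 16.8, 24.1 and 17.8 CPM in side B over 14 genes. Only knockout 2 and wildtype 1 carried them at a high level. Hsd3b1, which makes progesterone from pregnenolone, was at 3.49, 225, 2.41 and 245 against 0.0742, 0.376, 0.442 and 0.452. Cyp11a1, which starts steroid synthesis from cholesterol, was at 1.4, 119, 0.668 and 119, with every library of side B under the floor, and Cyp11b1, which completes corticosterone, was at 0.508, 91.1, 0.535 and 77, again with side B under the floor.

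Red cell transcripts parted all 8 libraries. The erythroid list of 9 genes summed to 7990.2, 1318, 741 and 1455 CPM in side A and to 309, 300, 232 and 358 CPM in side B. Hbb-bs, a beta globin, was at 4772, 682, 367 and 818 against 120.4, 120.1, 74.5 and 144, a 14.5-fold ratio of side means. Alas2, the first enzyme of heme synthesis in red cell precursors, was at 145, 35.8, 22.5 and 35.5 against 3.93, 6.07, 2.28 and 7.36. Knockout 1 was the highest by far in both, and without it the log2 ratio of Hbb-bs fell from 3.85 to 2.44 and that of Alas2 from 3.6 to 2.67. The part of adrenal and red cell RNA in the split was not tested. In bulk tissue, fewer cells of a type and less RNA per cell cannot be told apart, which holds for every list below.

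Component 1 held 34.4% of the variance, component 2 19.3% and component 3 13.4%. Scores on component 1 were -27.4, -28.5, -8.4 and -28.6 in side A and 24.6, 33.2, 21.4 and 13.7 in side B. The libraries next to the gap were knockout 4 at -8.4 and wildtype 4 at 13.7. The gap of 22.1 between them compares with a range of 20.2 within side A and of 19.5 within side B. Each of the 8 libraries had its nearest neighbour, by distance over all genes, on its own side, and for 3 of the 8 that neighbour shared the genotype label. The median distance was 60.2 within side A, 53.2 within side B and 68.3 between the sides. Pairs of the same genotype label lay at 65.1 and pairs of different label at 63.5. The ranges overlapped, at 44.4 to 68.9 within side A, 50.6 to 58.4 within side B and 53.6 to 78.2 between the sides. Knockout 4 lay at 52.9 from knockout 2 and at 53.6 from wildtype 4. These distances use the values that drew the sides, so closeness within a side is partly built in and does not support the sides. When each gene was scaled to unit variance, knockout 4 fell on the other side of 0 and the sides overlapped. When the genes of the adrenal, erythroid, heat shock and clock lists were left out, all 8 libraries were on their own side of 0.

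**Figure D1:**
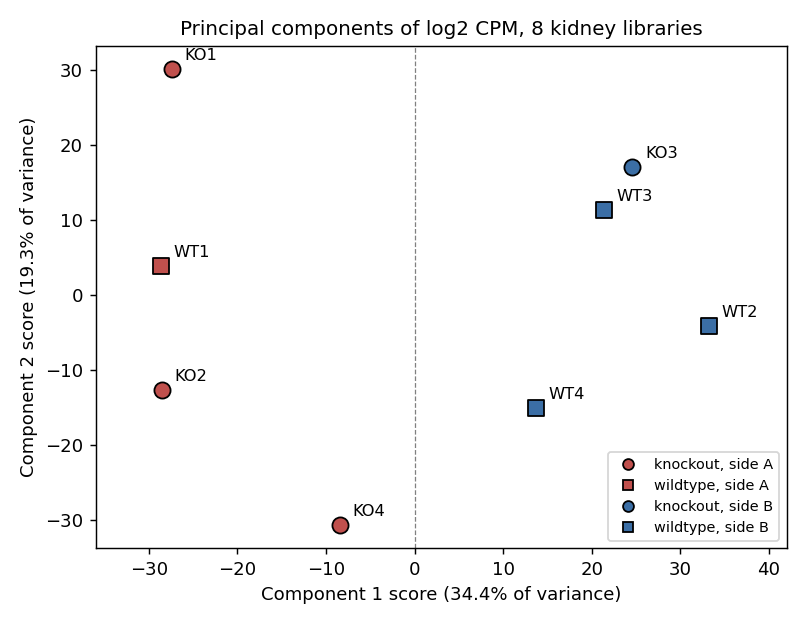
Scores of the 8 libraries on component 1 (horizontal axis) and component 2 (vertical axis) of log2 CPM, in score units, with circles for knockout, squares for wildtype, red for side A and blue for side B. The sides are separated on component 1 between -8.4 (KO4) and 13.7 (WT4), and each side holds both genotype labels.

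The sides also differed in measures of the libraries that name no gene. Reads outside annotated genes made up 16.2, 14.5, 13.7 and 14.4% of all read lines in side A and 11.6, 12.4, 12.6 and 13% in side B. Reads without a unique place made up 20.9, 17.1, 16.6 and 18.4% against 16.3, 15.8, 16.5 and 16.5%. As a share of all lines, reads that touched more than 1 gene were the reverse, at 2.05, 2.22, 2.22 and 2.18% against 2.31, 2.29, 2.28 and 2.26%. These shares have the same total, so a rise in some lowers the others. Genes with at least 1 count numbered 20547, 20303, 20057 and 20259 against 19486, 19860, 19964 and 20004. None of these 4 measures overlapped between the sides, although the margins were small for knockout 4. The part of these 4 measures in the gene differences was not tested. The 50 most abundant genes held 17.8 to 19.5% of gene counts in side A and 18.8 to 19.9% in side B, which overlap.

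**Figure D2:**
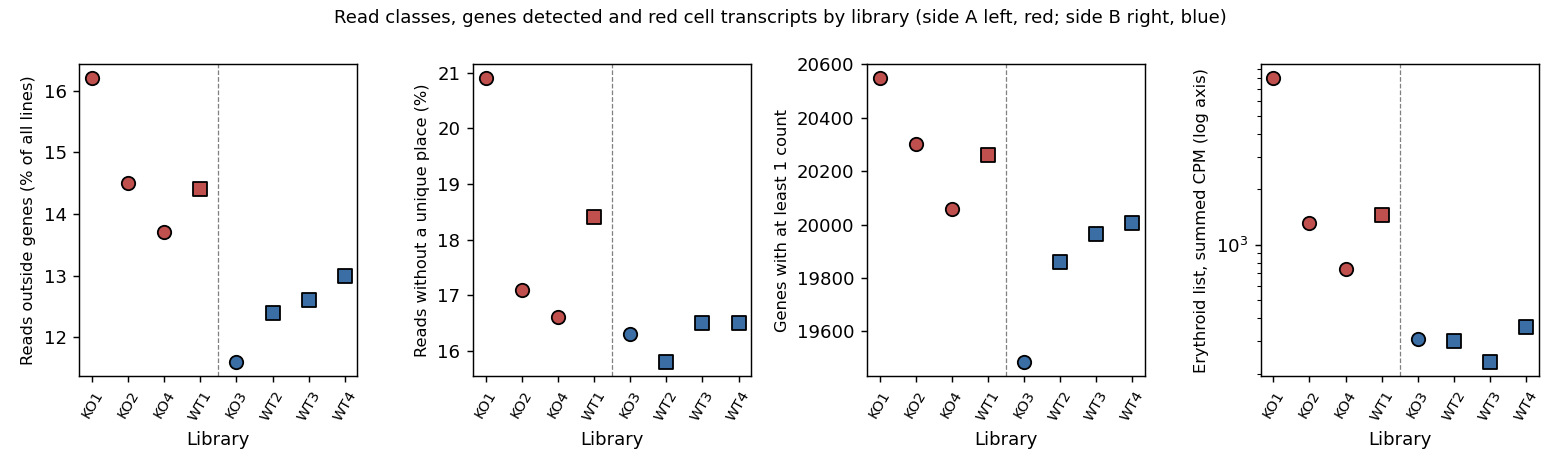
From left to right, reads outside genes (% of read lines), reads without a unique place (%), genes with at least 1 count, and the summed CPM of the erythroid list on a log axis, 1 point per library (circles knockout, squares wildtype). Side A (red) lies above side B (blue) in each panel, with erythroid sums from 741 to 7990.2 CPM in side A and from 232 to 358 CPM in side B.

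Of the 10935 genes with a mean of 5 CPM or more, 639 (5.84%) were higher in every library of side A and 887 (8.11%) in every library of side B, 14% in either direction. Along the genotype labels the same count was 193 genes, or 1.76%, for labels that were not drawn from the values. The differences were mostly small: the median ratio of side means was 1.35-fold among genes higher in side A and 1.24-fold among those higher in side B. At 2-fold or more there were 51 genes higher in side A and 34 higher in side B. The balance of directions depended on scaling, since without a scaling factor 959 genes were higher in side A and 566 in side B (62.9% of calls toward side A, against 41.9%). Leaving out a library raises such counts by construction, and 1201 and 1424 genes did not overlap without knockout 4, 986 and 1223 without knockout 1, and 1060 and 1335 without both libraries that carried adrenal RNA. Counts within the gene lists below are descriptions to be set beside 5.84% of all genes for side A and 8.11% for side B, and a gene that is low in one side reaches the mean of 5 CPM only through the other. The threshold of 5 CPM sat between Tmem191c at 5.03 and Slc18a2 at 5.1 CPM on the inside and Tmem151a at 4.97 and Nlrc5 at 4.96 CPM on the outside.

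Each side has 1 library of the minority label, and its place among the others was described gene by gene. Wildtype 1 lay within the range of the 3 knockout libraries of side A for 58.5% of genes higher in side A and 53.4% of genes higher in side B, against 62.1% of all 10935 genes. Knockout 3 lay within the range of the 3 wildtype libraries of side B for 59 and 55.8% of these genes, against 49.5% of all. The library nearest the other side was most often knockout 4, which was the lowest of side A for 35.7% of genes higher there and the highest of side A for 40.1% of genes higher in side B.

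Genes of the sides differed in structure. The median transcript length was 2701 bases for genes higher in side A, 3900 bases for genes higher in side B and 3477 bases for all genes at this level, and the median GC content was 51.8, 47.7 and 49.7%. In the decile with the shortest transcripts (median 1135 bases), 9.6% were higher in side A and 2.03% in side B. In the decile with the longest (median 8406 bases) the shares were 2.03 and 7.66%. In the decile richest in GC (median 59.4%) they were 10.3 and 2.12%. The median log2 ratio fell from 0.149 in the shortest decile to -0.069 in the longest. With a smooth trend on length and GC content taken out of each library, all 8 libraries kept their side, and 730 and 1020 genes did not overlap, 1126 of them among the 1526.

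**Figure D3:**
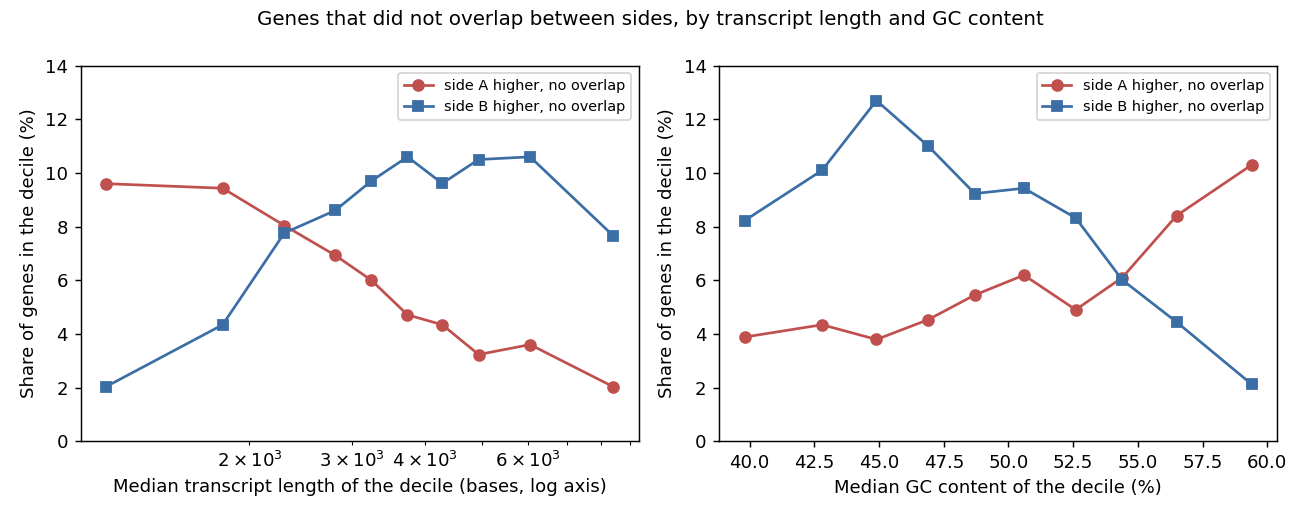
Share of genes (%, vertical axis) higher in side A (red circles) or side B (blue squares) without overlap, in deciles of genes by median transcript length (bases, log axis, left) and median GC content (%, right). The share higher in side A falls from 9.6% to 2.03% with length, and the share higher in side B falls to 2.12% in the decile richest in GC.

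Among genes higher in side B, the widest partings were nearly switch-like. Rpl34 (chromosome 3), a protein of the large ribosomal subunit, was at 1.71, 1.91, 1.8 and 2.25 against 35.8, 27.9, 35 and 28.2, a 16.5-fold ratio. The lowest library of side B was 12.4 times the highest of side A, a quantity called the gap here. Mfsd4b5 (chromosome 10), of a family of membrane transporters, was at 35.1, 23.4, 29.7 and 39.8 against 255, 510.1, 239.8 and 258, a 9.87-fold ratio with a gap of 6.03. Cntnap5a (chromosome 1), of a family of neuronal adhesion proteins, was at 2.22, 2.74, 2.61 and 3.13 against 12.5, 15.9, 11.4 and 7.75. These 3 genes were taken for their large ratios and gaps, so their parting does not support the sides. Within side B, Cntnap5a ran from 7.75 to 15.9 CPM. Rpl34 has many near-identical copies in the genome and reads without a unique place were set aside, so its level is uncertain.

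The largest weights on component 1 toward side A lay on Hsd3b1, Cyp11a1, Cyp21a1, Hbb-bt and Star. All of these but Hbb-bt, a beta globin, are in the adrenal list and were at a high level only in knockout 2 and wildtype 1. A few genes with a large weight toward side B were switch-like but did not follow the sides. Ugt2b38 (chromosome 5), which adds glucuronic acid to steroids and drugs, was at 0.19, 0.191, 429 and 0.34 against 1635, 762, 591 and 0.258. Knockout 4 was therefore high with 3 libraries of side B, and wildtype 4 was low with 3 libraries of side A. Gm4737 (chromosome 16) was high and low in these same libraries, at 0.571, 0.319, 9.09 and 0.817 against 13, 17.3, 20.7 and 0.258. Rps3a1 (chromosome 3), a protein of the small ribosomal subunit with many copies, was at 0.888, 0.255, 0.535 and 0.612 against 34.7, 13.1, 0.632 and 12.2, so that wildtype 3 was low with side A. Synpr (chromosome 14), a synaptic vesicle protein, was at 0.0634, 0.957, 0.134 and 0.68 against 12.6, 19.4, 0.632 and 2.26. What gave the switch-like values of these genes and of Mfsd4b5 was not tested.

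Several transcripts of the straight proximal tubule were higher in side B. Of 14 listed genes at 5 CPM or more, 6 were higher in every library of side B and 0 in side A, beside 8.11 and 5.84% of all genes, and the list's median log2 ratio of side A over side B was -0.42, beside -0.006 for all. Acsm3, which activates medium-chain fatty acids, was at 390.4, 645, 603 and 845 against 1378, 1852, 1058 and 1226, a 2.22-fold ratio. Slc5a8, which takes up lactate and nicotinate with sodium, was at 142, 142, 159 and 182 against 339, 379.6, 223 and 329, a 2.03-fold ratio. Slc7a13, a cystine and aspartate carrier of this segment, was at 827, 1067, 1074 and 1347 against 1412, 1724, 1573 and 1709, a 1.49-fold ratio whose sides all but touched. Within side A, knockout 1 was the lowest and wildtype 1 the highest for Acsm3 and Slc7a13. Slc22a7, an organic anion transporter, differed by 1.73-fold, Atp11a, which flips phospholipids between membrane leaflets, by 1.82-fold and Slc3a1, the heavy chain of the cystine carrier, by 1.34-fold. Kap, the androgen-regulated kidney protein and the most abundant member, overlapped, at 41373, 36507, 26083 and 51831 against 51769, 42979, 44144 and 37399.

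Of 15 listed genes of the early proximal tubule, 2 were higher throughout side B, beside 8.11% of all genes (1 gene without a scaling factor), with a list median of -0.14. Slc22a6, which imports organic anions from blood, was at 837, 1103, 1049.9 and 1007 against 1516, 1669, 1345 and 1526, a 1.52-fold ratio. Slc13a3, which takes up dicarboxylates, differed by 1.38-fold and overlapped without a scaling factor. Slc34a1 and the endocytic receptor Lrp2 overlapped, with side B 1.33-fold and 1.2-fold higher in the mean.

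Among 14 transporters and enzymes of drug handling, 4 were higher throughout side B and 0 in side A, with a median of -0.28. Slc22a2, which imports organic cations, was at 238, 329.6, 351 and 355 against 501, 541, 466 and 485. The urate carrier Slc22a12 differed by 1.52-fold and overlapped without a scaling factor. The export carrier Slc47a1 and Cyp2j5, which oxidises arachidonic acid, both differed by 1.29-fold. Some abundant genes outside these lists were taken because they parted toward side B, so their direction does not support the lists. Cyp4b1, a microsomal hydroxylase, was at 3099, 3723, 3938 and 4597 against 7197, 6704, 5743 and 5465. It is also counted in the sex dimorphic list below. Acy3, which deacetylates mercapturic acids, differed by 1.7-fold, and Selenop, the selenium carrier protein, was at 3117, 2677, 2677 and 3069 against 4762, 4868, 4064 and 4142.

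Several genes known to be higher in male or androgen-treated mouse kidney were higher in side B. Of 14 sex dimorphic genes at 5 CPM or more, 5 were higher throughout side B and 1 throughout side A, with a median of -0.20. Slco1a1, an organic anion carrier, was at 293, 608, 632 and 882 against 1448, 1823, 1378 and 923, a 2.31-fold ratio. Cyp4a12a, which hydroxylates arachidonic acid in males, was at 217, 323, 199 and 317 against 519.6, 651, 417 and 464. Slc22a28 differed by 2.49-fold and Acsm2 by 1.38-fold, the latter overlapping once the length and GC trend was taken out. Odc1, the first enzyme of polyamine synthesis and an androgen target in this tissue, is outside the list and was taken for its large ratio toward side B. It was at 101, 179, 168 and 253 against 395, 715, 342 and 456, a 2.73-fold ratio. Prlr, the prolactin receptor, which is higher in female kidney, went the other way, at 21.3, 7.46, 13.8 and 11.2 against 3.78, 2.5, 4.36 and 3.1, a 3.91-fold ratio. The Y-linked gene Ddx3y had a ratio of side A over side B of 0.96, and its lowest level in any library was 72.1 CPM. Wildtype 1 was the highest library of side A for Slco1a1 and Odc1, and knockout 1 the lowest.

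**Figure D4:**
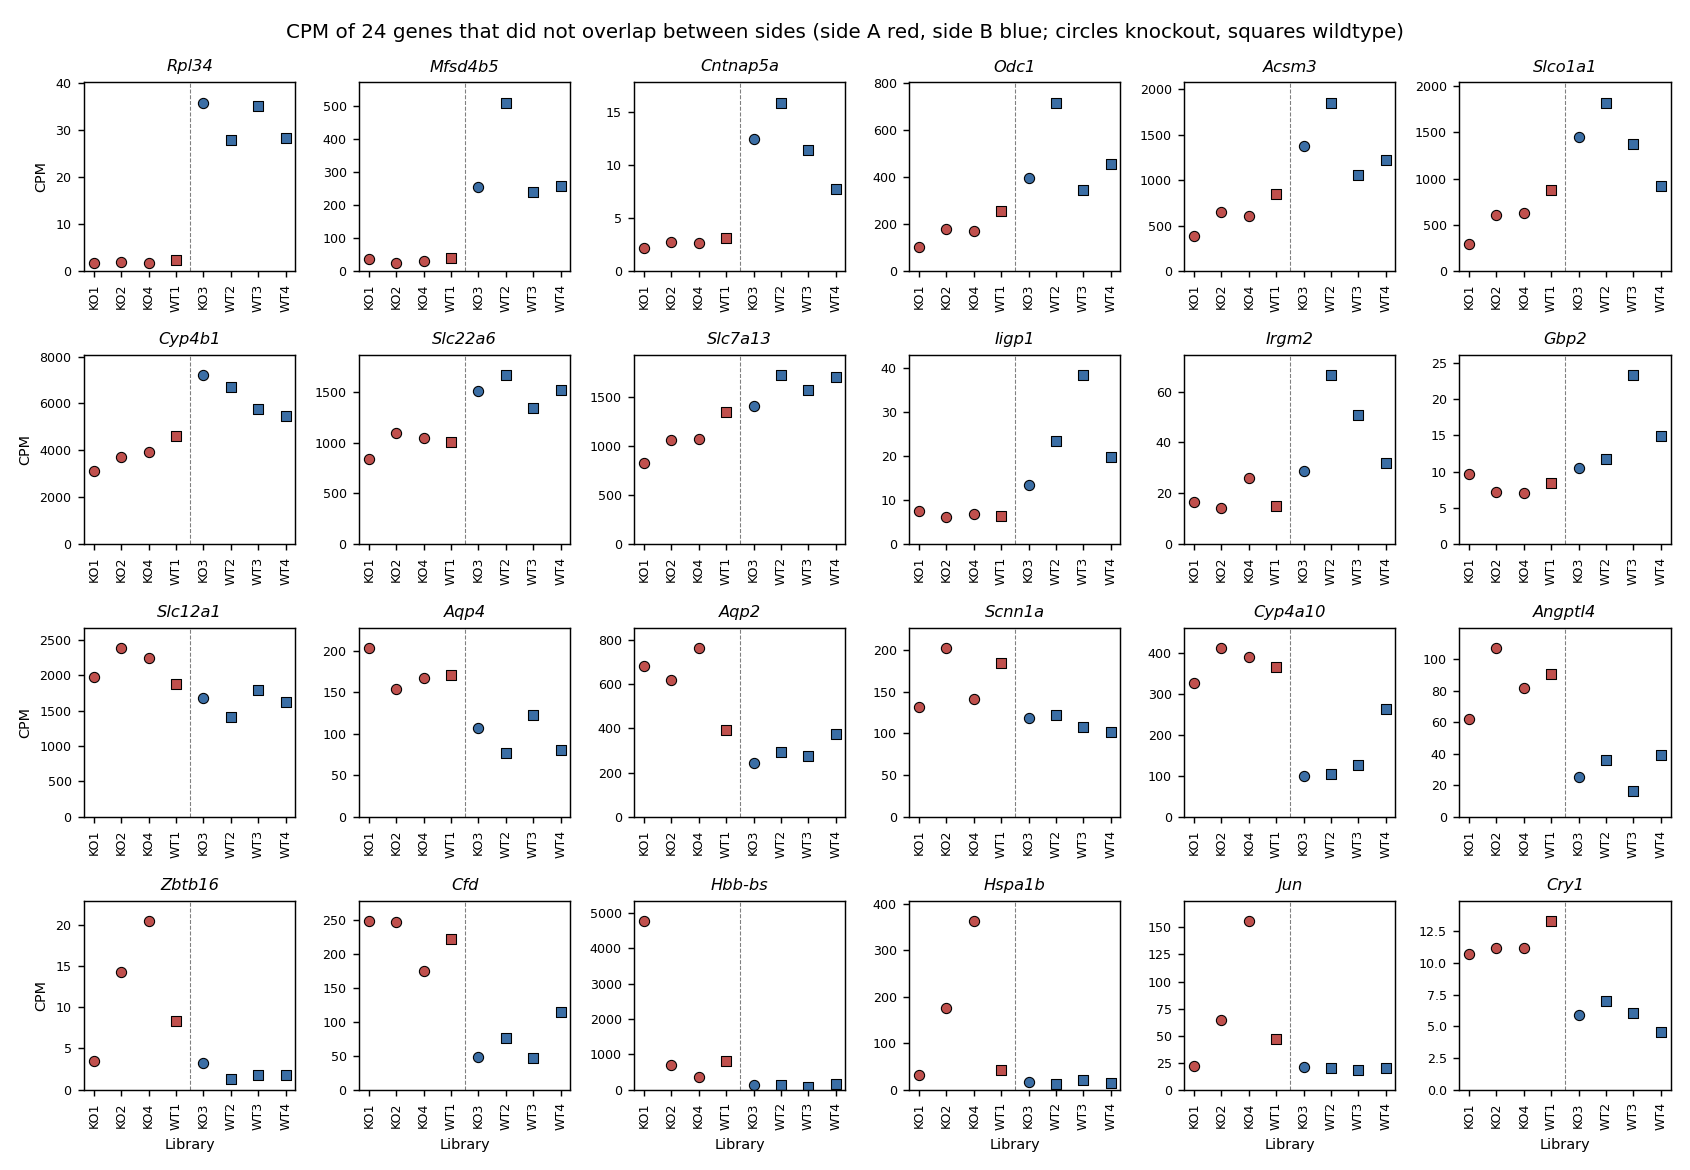
CPM (vertical axes, each from 0) of genes that did not overlap between the sides, 1 point per library (red side A, blue side B, circles knockout, squares wildtype). The first 12 panels show genes higher in side B, such as Rpl34 at 27.9 to 35.8 CPM against 1.71 to 2.25 CPM, and the last 12 genes higher in side A, such as Cfd at 175 to 249 CPM against 47.2 to 115 CPM.

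Many transcripts of the thick ascending limb, thin limb and principal cells were higher in side A. Of 14 thick ascending limb genes, 7 were higher throughout side A and 0 throughout side B (5 and 1 with the length and GC trend taken out), with a median log2 ratio of 0.34. Slc12a1, the sodium, potassium and chloride cotransporter that loop diuretics block, was at 1971, 2382, 2243 and 1876 against 1685, 1411, 1788 and 1615, a 1.3-fold ratio. Kng2, a kininogen, was at 215, 234, 187 and 262 against 167, 144, 186 and 110.1, with sides that almost met. Ptger3, a prostaglandin E2 receptor, differed by 1.38-fold, Cldn16, which forms the paracellular path for magnesium, by 1.35-fold and Umod by 1.16-fold. The phosphatase inhibitor Ppp1r1a (1.35-fold) overlapped once the length and GC trend was taken out.

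In the thin limb list, 4 of 10 genes were higher throughout side A, with a median of 0.59. Aqp1, the water channel of the proximal tubule and descending limb, was at 1475, 1481, 1418 and 1298 against 1190.5, 1176, 1043 and 1189, a 1.23-fold ratio. The tight junction gene Cldn4 differed by 1.5-fold.

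In the connecting tubule and principal cell list, 4 of 13 genes were higher throughout side A, and all 13 had a side mean that was higher there, with a median of 0.20. Aqp2, the water channel that vasopressin moves to the cell surface, was at 683, 621, 763 and 391 against 241, 291, 276 and 375, a 2.08-fold ratio with wildtype 1 and wildtype 4 close to each other. It overlapped once the length and GC trend was taken out. Aqp4, the water channel of the opposite membrane, was at 203, 154, 167 and 171 against 107, 76.6, 122 and 80.5, a 1.8-fold ratio. Scnn1a, a subunit of the epithelial sodium channel, was at 131, 202, 141 and 184 against 118, 122, 108 and 101. Elf5, a transcription factor of principal cells, differed by 1.55-fold. Of 12 intercalated cell genes none parted the sides (2 toward side A without a scaling factor), 11 had a higher mean in side A, and the median was 0.30. Podocytes (0 of 9 genes), smooth muscle and juxtaglomerular cells (0 of 8) and lymphocytes (0 of 5) held no gene that parted, the endothelium held 1 of 13 and the distal convoluted tubule 1 of 15. With the length and GC trend taken out, 3 intercalated cell genes were higher throughout side A, smooth muscle held 1 in each direction, the distal convoluted tubule 1 in side A and 2 in side B, and the endothelium 0.

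**Figure D5:**
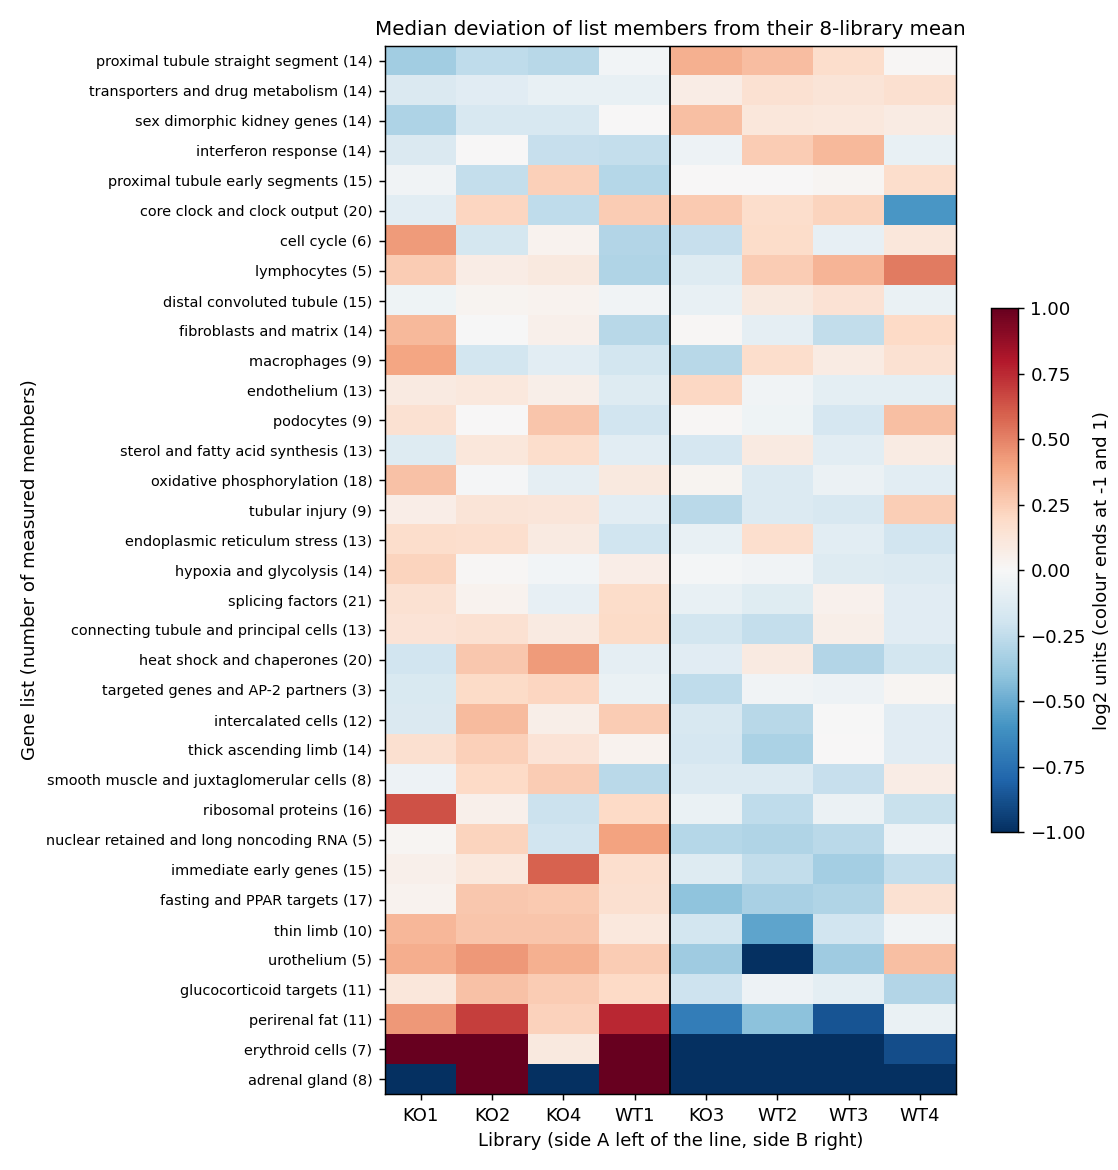
Median deviation of each list's measured genes (their number in brackets) from the mean of the 8 libraries, in log2 units on a colour scale that ends at -1 and 1, by library, ordered by the ratio of side A over side B. The straight proximal tubule list is lowest in knockout 1, 2 and 4, the erythroid list reaches the end of the scale in 3 libraries of side A, and the adrenal list is high in knockout 2 and wildtype 1 alone.

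Some targets of PPAR and fasting were higher in side A and a few in side B. Of 17 genes, 6 were higher throughout side A and 2 throughout side B, with a median of 0.47. The 2 were Acadm and Cyp4a12a, the latter also in the sex dimorphic list above. Cyp4a10, which hydroxylates fatty acids, was at 325, 411, 389.5 and 365 against 98.3, 104, 126 and 263, a 2.52-fold ratio. Angptl4, which inhibits lipoprotein lipase, was at 62, 107, 82 and 90.4 against 24.9, 35.7, 16.4 and 39.1, a 2.94-fold ratio. In Cyp4a10 and Cyp4a14 (6.05-fold), wildtype 4 was the highest library of side B, and without it the log2 ratio of Cyp4a14 rose from 2.60 to 3.23. Acadm, of medium-chain fatty acid oxidation, was 1.13-fold higher in side B, a difference that overlapped without a scaling factor and with the length and GC trend taken out. Lpl, the target of Angptl4, also overlapped, at 1083, 851, 811 and 1431 against 1066, 1406, 1336 and 1775.

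Of 11 glucocorticoid targets, 2 were higher throughout side A, beside 5.84% of all genes, with a median of 0.64. Zbtb16, a transcription factor with a strong response to glucocorticoids, was at 3.43, 14.3, 20.5 and 8.3 against 3.19, 1.25, 1.71 and 1.81, so that knockout 1 all but met knockout 3. Mt1, a metal-binding metallothionein, was at 134, 94.6, 108 and 109 against 87.4, 46.3, 82 and 70.9. Fkbp5 and Klf9, other targets of the receptor, overlapped.

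Several fat cell transcripts were higher in side A. The perirenal fat list summed to 4276, 5806, 4448 and 6005 CPM against 3313, 4140.2, 3149 and 4441 CPM, a sum that overlaps and in which Pck1 and Lpl, also made by tubules, weigh most. Of 11 genes, 6 were higher throughout side A, with a median of 1.04. Cfd, the adipokine adipsin, was at 249, 247, 175 and 223 against 47.4, 76.4, 47.2 and 115, a 3.13-fold ratio. Fabp4, the fatty acid carrier of adipocytes, was at 382, 367, 268 and 398 against 146, 134, 127 and 220.3, and Adipoq, adiponectin, at 40.2, 36.1, 25.1 and 41.8 against 13.5, 20.8, 11.7 and 23.6. Cidec, of lipid droplets, differed by 2.41-fold. The part of attached fat in the levels of PPAR targets, which adipocytes also express, was not tested. Urothelial genes lay the same way, with 2 of 5 higher throughout side A, such as Krt7 at 140, 147, 107 and 134 against 84.8, 95.3, 83.7 and 96.6.

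Immediate early genes were higher in side A in 7 of 15 cases (6 with the length and GC trend taken out) and in side B in none, with a median of 0.44. Jun was at 22.2, 64.8, 156 and 46.7 against 20.9, 19.8, 17.9 and 20, so that knockout 1 was close to side B and knockout 4 far above, and without knockout 4 the log2 ratio fell from 1.88 to 1.19. Ier2 was at 22.8, 19.8, 24.9 and 26.4 against 13.2, 13.7, 8.03 and 12.1. Nr4a1, an orphan nuclear receptor, was at 5.33, 6.57, 14.8 and 16 against 3.34, 3.32, 3.16 and 4.07. Egr1 (3.29-fold) and Myc (1.92-fold), both transcription factors, were also higher throughout side A, Egr1 with a log2 ratio of 1.72 that fell to 1.1 without knockout 4.

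Of 20 heat shock and chaperone genes, 4 were higher throughout side A and 1 throughout side B, with a median of 0.25. With the length and GC trend taken out, 1 was higher throughout side A and 1 throughout side B. Hspa1b, the inducible 70-kilodalton chaperone, was at 30.8, 175, 363 and 41.4 against 16.4, 11.8, 19.8 and 13.3, with knockout 4 and knockout 2 far above the rest. Its log2 ratio was 3.31, and 2.44 without knockout 4. Hspa1b is nearly identical to Hspa1a, so its level is uncertain. Hspb1, a small heat shock protein, was at 4.06, 15.3, 15.7 and 5.99 against 3.19, 2.32, 2.84 and 2.07, and it overlapped once the length and GC trend was taken out. Hsp90ab1, the most abundant member, overlapped.

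The mitochondrial chaperonin pair parted in opposite directions. Hspe1, the lid of the chaperonin, was at 74.7, 69.2, 65.1 and 69.6 against 63.1, 55.4, 47.5 and 53.7, 1.27-fold higher in side A. Hspd1, its barrel, was at 327, 339, 339.8 and 352 against 406, 429.8, 376 and 401, 1.19-fold higher in side B. These genes are transcribed away from each other from a shared start region on chromosome 1. Hspe1 overlapped once the length and GC trend was taken out, while Hspd1 did not. The promoter of Hspe1 is shown because one region serves both genes. It lies at chr1:55087898-55088197 of GRCm38.p6 on the plus strand, from 250 bases before to 50 after the start site, as given by RefSeq and written 5′ to 3′. Capitals mark 2 overlapping matches of the heat shock element, of which the second begins at -84. The element was searched on both strands as GAA, TTC and GAA with any 2 bases between them.
Hspe1: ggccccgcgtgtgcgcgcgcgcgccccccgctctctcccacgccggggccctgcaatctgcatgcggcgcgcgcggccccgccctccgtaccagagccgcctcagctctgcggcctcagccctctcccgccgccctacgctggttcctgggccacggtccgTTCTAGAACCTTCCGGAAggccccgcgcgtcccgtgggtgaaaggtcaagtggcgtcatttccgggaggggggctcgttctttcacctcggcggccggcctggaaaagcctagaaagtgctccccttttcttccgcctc

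Of genes with a RefSeq promoter of this length, this element was found in 5 of 478 (1.05%) higher in side A and 3 of 694 (0.432%) higher in side B, against 179 of 27025 (0.662%) of all genes. A match is a run of letters and does not show binding.

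Several interferon-inducible genes were higher in side B. Of 14 interferon genes, 3 were higher throughout side B and 0 throughout side A, with a median of -0.15, and 5 of the 14 had a higher mean in side A. Iigp1, a GTPase that attacks vacuoles of parasites, was at 7.49, 6.12, 6.75 and 6.33 against 13.4, 23.4, 38.4 and 19.9, a 3.56-fold ratio. Gbp2, a guanylate-binding protein, was at 9.71, 7.21, 7.08 and 8.37 against 10.5, 11.8, 23.3 and 14.9. Side A was nearly flat for Iigp1, with the spread lying in side B, where knockout 3 was the lowest library for Iigp1 and Gbp2.

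Outside the list, Gbp4, Irgm2, Ciita and Il34 were taken for their large ratios toward side B, so their direction does not support the list. Gbp4 was at 6.72, 4.66, 4.61 and 5.38 against 12.4, 14.1, 21.3 and 9.82. Irgm2, a GTPase that restrains Iigp1, was at 16.5, 14.2, 26 and 15.1 against 28.6, 66.4, 50.7 and 31.8. Ciita, the switch of MHC class II genes, was at 2.66, 3.13, 5.08 and 2.59 against 7.72, 10.9, 8.53 and 5.49. Cd74, the class II invariant chain, overlapped, at 269, 135, 168 and 97.8 against 239, 422, 284 and 240.4. Il34, a ligand of the macrophage growth receptor that tubules make, was at 15.6, 17.6, 12.6 and 17.1 against 39.8, 46, 39.2 and 30.7, a 2.47-fold ratio. Csf1r, its receptor, was at 66.2, 83.6, 80.7 and 86 against 126, 128, 124 and 88, with wildtype 4 next to side A, and it overlapped once the length and GC trend was taken out. Of 9 macrophage genes at 5 CPM or more, only Csf1r and Laptm5 (1.31-fold) parted the sides, both toward side B. Of the 9, 6 had a higher mean in side A, and the list's median log2 ratio was 0.01. The list sum of 268 to 468 CPM in side A overlapped that of 443 to 658 CPM in side B.

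The promoters of Irgm2 and Gbp2 are shown because both genes were higher in side B and hold the letters of an interferon stimulated response element close to the start site. They lie at chr11:58214727-58215026 and chr3:142620413-142620712 of GRCm38.p6, both on the plus strand, given by RefSeq, 5′ to 3′. Capitals mark the element, searched on both strands as GAAA and GAAA with any 2 bases between them, which begins at -64 in Irgm2 and at -59 in Gbp2.
Irgm2: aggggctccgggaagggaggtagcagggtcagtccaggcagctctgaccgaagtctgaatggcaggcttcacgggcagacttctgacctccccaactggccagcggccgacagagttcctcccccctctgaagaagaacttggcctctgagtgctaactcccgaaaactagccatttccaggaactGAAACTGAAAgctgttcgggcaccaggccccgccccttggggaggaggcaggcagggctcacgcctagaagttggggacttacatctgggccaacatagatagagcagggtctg
Gbp2: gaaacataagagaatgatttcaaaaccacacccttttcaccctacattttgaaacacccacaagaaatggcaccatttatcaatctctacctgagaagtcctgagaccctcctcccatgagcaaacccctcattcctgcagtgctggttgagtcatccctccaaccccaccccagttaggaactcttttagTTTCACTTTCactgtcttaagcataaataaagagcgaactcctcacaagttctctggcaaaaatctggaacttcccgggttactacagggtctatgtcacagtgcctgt

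Such a match was found in 14 of 478 promoters (2.93%) of genes higher in side A and 20 of 694 (2.88%) higher in side B, against 1079 of 27025 genes (3.99%).

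Clock genes as a list did not part the sides: of 20 genes, 2 were higher throughout side A, and the median was -0.06. Cry1, which represses the clock's activators, was at 10.7, 11.2, 11.2 and 13.3 against 5.86, 6.95, 6.07 and 4.52, a 1.98-fold ratio with a gap of 1.53. Usp2 and Tef, rhythmic outputs, overlapped, and for both the lowest library of side B was wildtype 4, at 108 and 294 CPM. The promoter of Cry1 is shown for its E-box, the site of the clock's activators. It lies at chr10:85185005-85185304 of GRCm38.p6 on the minus strand, given by RefSeq, 5′ to 3′, and capitals mark CACGTG, which begins at -60 and reads the same on both strands.
Cry1: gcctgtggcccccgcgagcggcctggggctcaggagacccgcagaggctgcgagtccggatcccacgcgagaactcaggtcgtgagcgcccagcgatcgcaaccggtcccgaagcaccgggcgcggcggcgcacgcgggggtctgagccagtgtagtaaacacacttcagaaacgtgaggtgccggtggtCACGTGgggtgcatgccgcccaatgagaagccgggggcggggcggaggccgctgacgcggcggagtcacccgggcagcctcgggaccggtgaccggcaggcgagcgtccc

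This E-box was found in 48 of 478 promoters (10%) of genes higher in side A and in 87 of 694 (12.5%) higher in side B, against 2187 of 27025 genes (8.09%). The 3 motifs were searched separately, and matches of different motifs may overlap. For each motif, the 27025 genes were not limited to those at 5 CPM or more. Median promoter GC content was 60.7% for genes higher in side A and 61.3% for genes higher in side B, against 52.7% for all. The part of base composition in the shares of promoters with a match was not tested.

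Among lists of housekeeping genes, the median log2 ratio was 0.37 for ribosomal proteins and translation, 0.14 for splicing factors and 0.11 for oxidative phosphorylation. Of 16 listed genes of ribosomal proteins and translation at 5 CPM or more, which do not include Rpl34 and Rps3a1, 2 parted toward side A, and 1 with the length and GC trend taken out. All 16 had a higher mean in side A, and the median of this list was 0.24 with that trend taken out. One of the 2 was Rpl18 at 50.3, 39.2, 37.7 and 43.2 against 34.8, 35.1, 31.3 and 33.6. Knockout 1 was the highest library for Rpl18 and for Rps3, which overlapped at 633, 431, 359 and 464 against 385, 352, 332 and 330.3. Of 21 splicing factors 3 parted toward side A (5 with that trend taken out), among them the kinase Clk1 at 194, 182, 167 and 206 against 158, 128, 159 and 126. Of 18 genes of oxidative phosphorylation 0 parted (3 toward side A without a scaling factor), and Atp5b, a subunit of the ATP synthase, had a ratio of side A over side B of 0.963.

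Spp1 (osteopontin) and Klk1 (tissue kallikrein), both secreted by distal segments, were higher in side A, at 975, 723, 1177 and 649 against 488, 401, 599.5 and 635 and at 1752, 2032, 1676 and 2084 against 1197, 810.4, 1255 and 1614. Both overlapped once the length and GC trend was taken out. Abcb1b, a drug export pump, was at 7.55, 33.6, 6.01 and 45.7 against 3.78, 2.94, 3.35 and 4.59, with the high values in knockout 2 and wildtype 1, the libraries with adrenal transcripts. Whether its RNA came from the adrenal was not tested.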

How the data were processed

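The authors deposited raw counts per gene, unnormalized, in a separate file for each library. Total RNA was isolated with Trizol and a Directzol kit and made into directional libraries, per the labels' protocols. STAR, HTSeq, edgeR and the build mm9 are named in the submitters' processing notes, with no versions and no annotation stated there. Counting ignored strand, judging by names of the deposited count files, so a gene cannot be told apart from an antisense partner. Lines that name no gene (outside genes, ambiguous, not unique) took 11.6 to 16.2%, 2.05 to 2.31% and 15.8 to 20.9% of all lines and were kept out of library sizes. Mitochondrially encoded genes were not analysed here.

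CPM used library sizes scaled by TMM in edgeR 4.0.16 (R 4.3.3). Of 37583 identifiers, 32860 matched a symbol in GENCODE M21 (GRCm38), which also gave chromosome, length and GC content. Components were computed on log2 CPM (prior count 2, centred) of the 14433 genes kept by filterByExpr (minimum count 10, minimum total count 15). Genes were compared between sides by non-overlap at a mean of 5 CPM or more, with no test. Genotype as labelled was tested with edgeR's quasi-likelihood test, two-sided, with Benjamini-Hochberg adjustment, checked on simulated data, and DESeq2 1.42.0 was the other tool. No pair of libraries held identical counts.

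The sides, the gene lists and the rule for named genes were chosen with earlier results of these data known. The rule took the targeted genes, the largest ratios, levels and gaps in each direction, up to 6 parting members and the 2 most abundant genes of each list, the genes nearest the 5 CPM threshold and the largest loadings, and only some of these are described. Ddx3y was named after its values were seen. Alternatives changed the normalization, prior count, filter, gap and gene set and left out each library. Leaving out both libraries with adrenal RNA and removing a trend on length and GC content were added after seeing the data. Promoters came from RefSeq tables on GRCm38.p6, in which 478 of the 639 genes higher in side A and 694 of the 887 higher in side B had an entry. Figures were drawn with matplotlib 3.10.9. Some genes that the rule takes are left out here.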

Additional observations from a re-analysis of the deposited data

Results flagged for a closer look

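For the genes described here and 4 read measures, 214 groups of 4 libraries with the same genotype label were examined, and in 30 of them 1 library lay far from the other 3 of its label. Chance gives this in about 1 in 20 groups, and a label group that holds 1 library of the other side does so wherever the sides part widely.

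Knockout 3 stood away from the other knockout libraries, which lie in side A, for 13 genes. It was high for Rpl34 (35.8 CPM, others 1.71 to 1.91), Mfsd4b5 (255 CPM, others 23.4 to 35.1), Cntnap5a (12.5 CPM, others 2.22 to 2.74), Slc5a8 (339 CPM, others 142 to 159), Acy3 (3494 CPM, others 1704 to 1933) and Hspd1 (406 CPM, others 327 to 339.8). It was also high for Nlrc5, a regulator of MHC class I genes (4.6 CPM, others 2.27 to 2.35), Rps3a1 (34.7 CPM, others 0.255 to 0.888) and Synpr (12.6 CPM, others 0.0634 to 0.957). It was high for Ggct (62.3 CPM, others 22.3 to 25.3), Apoh (23.2 CPM, others 7.72 to 9.71) and Ldhd (2315 CPM, others 1680.2 to 1776). It was low for Cry1 (5.86 CPM, others 10.7 to 11.2).

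Wildtype 1 stood above the other wildtype libraries, which lie in side B, for 10 genes. Adrenal genes were Cyp11a1 (119 CPM, others up to 0.0646), Cyp11b1 (77 CPM, others up to 0.0632) and Hsd3b1 (245 CPM, others up to 0.452), and Abcb1b was at 45.7 CPM with others up to 4.59. Red cell genes were Hbb-bs (818 CPM, others 74.5 to 144) and Alas2 (35.5 CPM, others 2.28 to 7.36). The remainder were Jun (46.7 CPM, others 17.9 to 20), Nr4a1 (16 CPM, others 3.16 to 4.07), Zbtb16 (8.3 CPM, others 1.25 to 1.81) and Rps3 (464 CPM, others 330.3 to 352).

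Knockout 2 was far above the other knockout libraries for Cyp11a1 (119 CPM), Cyp11b1 (91.1 CPM), Hsd3b1 (225 CPM) and Abcb1b (33.6 CPM, others 3.78 to 7.55). Knockout 1 was far above them for Hbb-bs (4772 CPM, others 120.4 to 682). Among wildtype libraries, wildtype 2 was high for Synpr (19.4 CPM, others 0.632 to 2.26) and wildtype 4 low for Tef (294 CPM, others 493 to 526).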

How the results depend on the processing

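The parting along component 1 put all libraries on their own side of 0 under every alternative run except unit-variance scaling, where 7 of 8 did, and with 1 library left out 7 of 7 did so each time (lowest and highest value 7). The counts of genes higher in side A and side B moved to 959 and 566 without a scaling factor, to 222 and 237 with a gap of at least 1.1, and to 1060 and 1335 without knockout 2 and wildtype 1 together, in which fewer libraries have to part. With each library left out they ranged from 740 to 1201 and from 962 to 1424. By genotype as labelled, DESeq2 called 4 genes (Lpl, Col19a1, Ndufs5 and 1 gene without a symbol), and leaving out a library gave 0 to 2 calls in edgeR: C4a without knockout 3, Ndufs5 without knockout 4, and BC023105 and Gm4841 without wildtype 1, with an unadjusted p under 0.05 for 343 to 1252 genes. The cause was not tested. With side as a term edgeR called 0 genes and 337 had an unadjusted p under 0.05. With the replicate number as a block edgeR called 0 genes and 1075 had an unadjusted p under 0.05. The smallest adjusted p in edgeR was 0.145 with this block and 0.957 without it. Deviations of libraries with the same replicate number correlated at 0.23, -0.23, 0.28 and 0.29. Knockouts 1 and 4 correlated best with the wildtype library of their own number, and knockouts 2 and 3 did not. The sides part the libraries of numbers 2 and 4, so this check cannot settle whether the numbers pair the libraries. Of the log2 ratios of the genes described, 0 of 204 moved beyond the spread within sides under other scalings, and with a library left out 813 stayed within it and 3 did not: Hbb-bs to 2.44 without knockout 1, and Gm4737 to -4.49 and Ugt2b38 to -11.59 without knockout 4. Among described genes that parted the sides, no direction reversed in these 2 kinds of alternative. For scaling, both outcomes were nearly fixed in advance, since a change of scaling shifts all genes about alike. The median log2 ratio of genes at 5 CPM or more was -0.006, and 0.046 without a scaling factor. The sides rest on 4 libraries each, were drawn from the values described, and their link to litter, hour of collection, dissection or sequencing run cannot be told apart with these labels.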

Other observations

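Some parting genes belong to other groups. Ces2b, a carboxylesterase, was at 8.06, 7.15, 10.6 and 9.93 CPM in side A and at 18, 21.1, 28.1 and 35.9 CPM in side B. Ggct, of glutathione breakdown, was at 22.3, 22.6, 25.3 and 27.6 against 62.3, 79.7, 55.5 and 41.5 CPM. Apoh, a phospholipid-binding plasma protein, was at 9.71, 7.72, 8.76 and 8.85 against 23.2, 22.4, 17.3 and 17.1 CPM. Ldhd, which oxidises D-lactate, was at 1776, 1716, 1680.2 and 1898 against 2315, 2943, 2326 and 2725 CPM. The sides did not overlap for any of these 4 genes.

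Parting genes were spread over the chromosomes. Among genes at 5 CPM or more, and leaving aside chromosome Y with 0 of 4 genes, the share higher in side B ran from 4.01% on chromosome 7 to 10.4% on chromosomes 1, 3 and 18, and the share higher in side A from 3.53% on chromosome 19 to 8.56% on chromosome 15. Among the most abundant decile of genes (median 286 CPM), 17.6% were higher throughout side B and 5.03% throughout side A. Knockout 1 was the highest library for 37.4% of genes higher in side A, and wildtype 2 for 45% of genes higher in side B.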
